A study of Homo sapiens with 16 samples.

Results

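AIB1 clusters, the genomic regions at which the deposited ChIP-seq lists record the nuclear receptor coactivator AIB1 (encoded by NCOA3), were followed here at 5 keratin genes. KRT5 and KRT14 encode the keratin pair of basal epithelial cells, and KRT6A, KRT16 and KRT17 encode keratins that stratified epithelia make under stress and during wound repair. The clusters were chosen by distance, as those within 200 kb of the canonical transcription start site (TSS) of one of these genes. They numbered 5 of the 897 different clusters in 4 lists, with 1 cluster at the type II keratin locus on chromosome 12 and 4 at the type I keratin locus on chromosome 17. The genes were selected on the presence, distance and score rank of clusters in these same lists, so the presence, number, distance and score of these clusters are descriptions and carry no test.

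Keratins form intermediate filaments from pairs of a type I and a type II chain, and the filaments of basal cells are anchored at desmosomes and hemidesmosomes. In mammary epithelium KRT5, KRT14 and KRT17 are widely used markers of basal and myoepithelial cells. Transcription factors of the AP-1 and p63 families are known activators of basal keratin genes, and glucocorticoids are known to repress several of them in keratinocytes. AIB1 does not bind DNA by itself in the classical model but is recruited by DNA-bound factors.

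The study compared MCFDCIS-D4 cells with MCFDCIS cells, and MCF10A-D4 cells with MCF10A cells. MCF10A is a non-tumorigenic human mammary epithelial line, MCFDCIS is a derivative that models ductal carcinoma in situ, and D4 refers to an amino-terminally truncated AIB1 splice isoform. The labels do not say how the D4 lines were made or whether each is 1 clone. The medium of all 4 groups contained hydrocortisone, a glucocorticoid, beside horse serum, insulin, EGF and cholera toxin. Each group had 3 ChIP samples and 1 input, and each is represented by 1 list with no values per replicate, so no replicate error can be given. Expression was not measured, so keratin RNA levels and the basal identity of the cells were not checked here.

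The cell line of each list is uncertain, because file names and sample descriptions give opposite lines while D4 and parental status match. The lists are therefore called by the name in the file. The MCFDCIS-named lists held 99 D4 and 651 parental clusters, and the MCF10A-named lists held 138 D4 and 490 parental clusters. Sequencing depth per list is unknown.

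The sequences of 4 of the 5 clusters are given first, because their letters took no part in the choice of genes. All are GRCh37 (hg19) reference sequence. The KRT6A line and both distal KRT17 lines show 200 bp around the cluster centre on the forward strand, and the KRT31 side line shows the whole cluster, also forward. Capitals mark matches, on either strand, to the AP-1 consensus TGANTCA, the TEAD consensus ACATTCC or the glucocorticoid response element (GRE) consensus, in which ACA and TGT stand 3 bases apart and are followed by any base and C.
KRT6A cluster, chr12:52888381-52888580: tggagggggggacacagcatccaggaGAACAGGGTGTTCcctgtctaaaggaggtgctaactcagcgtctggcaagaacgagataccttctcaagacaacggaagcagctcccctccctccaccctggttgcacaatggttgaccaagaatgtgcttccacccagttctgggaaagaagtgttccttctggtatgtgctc
KRT31 side cluster, chr17:39560251-39560460: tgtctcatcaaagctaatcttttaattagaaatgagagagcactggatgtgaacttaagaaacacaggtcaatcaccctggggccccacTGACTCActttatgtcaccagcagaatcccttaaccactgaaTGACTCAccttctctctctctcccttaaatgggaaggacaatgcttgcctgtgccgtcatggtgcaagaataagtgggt
First distal KRT17 cluster, chr17:39807881-39808080: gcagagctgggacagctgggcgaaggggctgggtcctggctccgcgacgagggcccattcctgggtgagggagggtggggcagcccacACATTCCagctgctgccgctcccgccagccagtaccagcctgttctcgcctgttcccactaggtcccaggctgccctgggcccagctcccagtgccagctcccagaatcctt
Second distal KRT17 cluster, chr17:39811931-39812130: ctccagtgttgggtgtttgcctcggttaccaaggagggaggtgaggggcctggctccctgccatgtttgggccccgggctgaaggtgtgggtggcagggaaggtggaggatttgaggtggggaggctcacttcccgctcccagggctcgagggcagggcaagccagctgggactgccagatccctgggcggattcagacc

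The 5 clusters were present in both parental lists with identical ends and absent from both D4 lists. All 307 clusters shared between the parental lists had identical ends, so that trait is not particular to these 5. In the MCFDCIS-named pair the D4 list held 0 of its 99 clusters near a member gene, which allows a share of up to 3.03%, and the parental list held 5 of 651, 0.768% (exact 95% interval 0.25 to 1.78). In the MCF10A-named pair the D4 list held 0 of 138, which allows up to 2.17%, and the parental list held 5 of 490, 1.02% (0.332 to 2.37). The D4 limits take 3 clusters of the list, and the exact 95% upper ends were higher, 3.66% for the MCFDCIS-named and 2.64% for the MCF10A-named D4 list. These limits and intervals cover the number of clusters only. They treat clusters as independent draws, although most of the keratin clusters stand together at the type I locus. The parental shares follow from the choice of genes, so they and their intervals are descriptions. At these parental shares, lists of the D4 lengths would hold 0.76 and 1.41 such clusters, which is no test of the D4 lists. A lower share in D4 cells was therefore not detectable at these list lengths.

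Absence from the D4 lists was also the usual state of a parental cluster. Of the parental clusters as a whole, 9.98% (65 of 651) were also in the D4 list under the MCFDCIS name and 13.7% (67 of 490) under the MCF10A name, against 0 of 5 keratin clusters under each. Of the 307 clusters in both parental lists, 260 (84.7%) were in neither D4 list, as were all 5 keratin clusters. Presence in both parental lists was less usual, since 47.2% of the MCFDCIS-named and 62.7% of the MCF10A-named parental clusters were in the other parental list. The presence of a cluster took part in the choice of genes, so nothing is read from these counts.

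**Figure D1:**
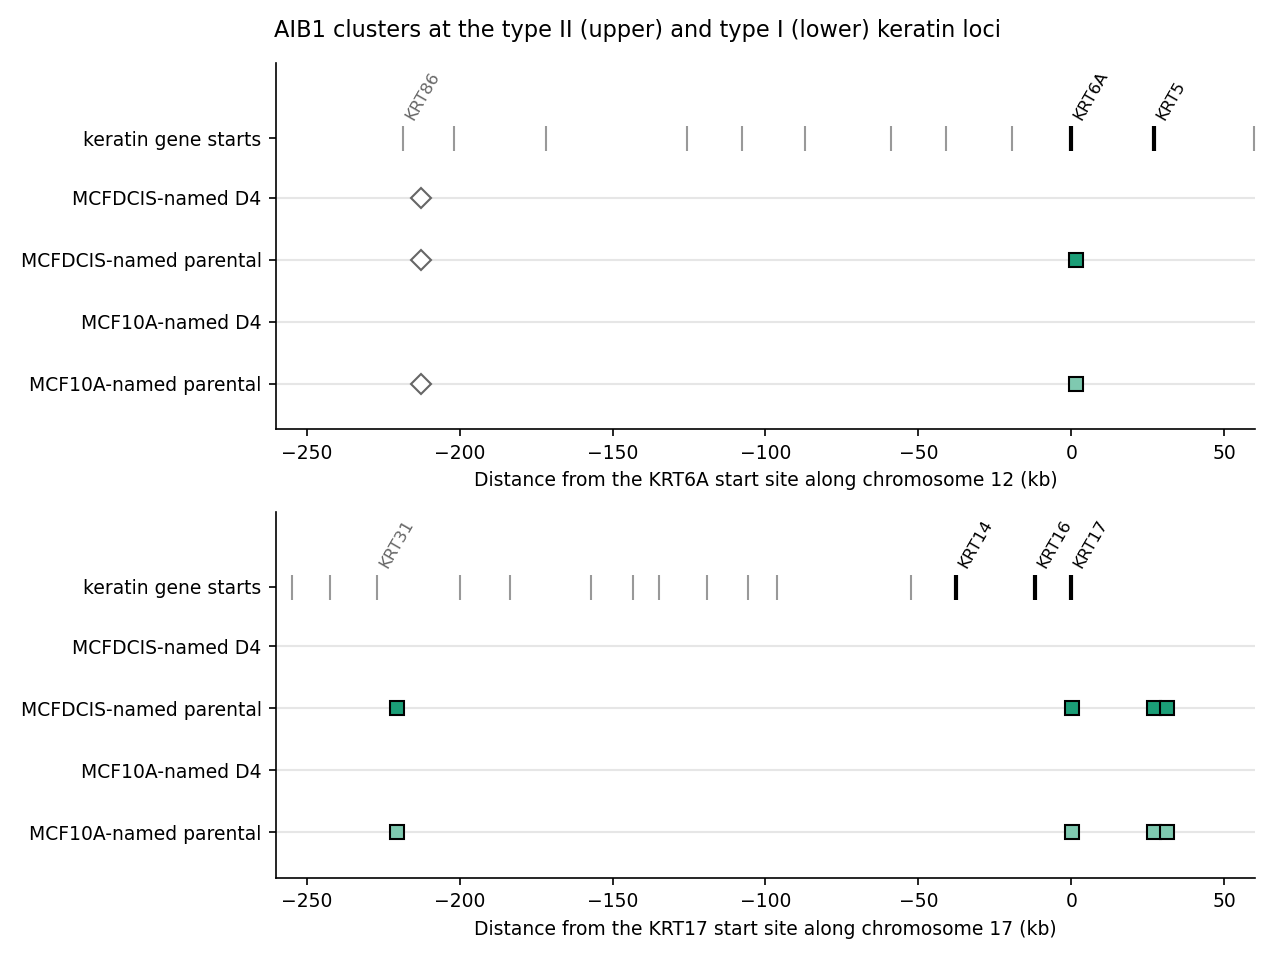
Positions of AIB1 clusters (squares, within 200 kb of a member gene; open diamonds, farther away) in the 4 lists, in kb along the chromosome from the KRT6A TSS (upper panel, type II locus) and the KRT17 TSS (lower panel, type I locus), with the starts of keratin genes as ticks (members in black). The 5 squares stand in the same places in both parental lists and none stands in a D4 list, and the only D4 mark is the diamond beside KRT86.

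The basal pair had its nearest parental clusters at 25.7 and 37.8 kb. For KRT5, the type II chain of basal cells, the nearest cluster lay 240 kb from the TSS in the MCFDCIS-named D4 list and 25.7 kb in the MCFDCIS-named parental list. In the MCF10A-named lists it lay 74.2 Mb away in D4 and 25.7 kb away in parental cells, the D4 list having 1 cluster on chromosome 12. The parental cluster stood downstream of the KRT5 start, between KRT5 and KRT6A. For KRT14, the type I partner, the nearest MCFDCIS-named cluster was 21.3 Mb away in D4 and 37.8 kb upstream in parental cells. The nearest MCF10A-named cluster was 1.66 Mb away in D4 and 37.8 kb upstream in parental cells. KRT14 had 4 parental clusters within 200 kb, at 37.8, 64.8, 68.9 and 183 kb, and was the only member within 200 kb of the last of these.

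The stress keratins were the members closest to a cluster. KRT6A, a type II chain, had 1 parental cluster, at chr12:52888451-52888510, 1.41 kb upstream of its TSS and in no annotated gene, against 213 kb and 74.3 Mb to the nearest MCFDCIS-named and MCF10A-named D4 clusters. KRT16, a type I partner of KRT6A, had parental clusters 11.9, 38.9 and 43.0 kb upstream, and its nearest D4 clusters were 21.3 and 1.63 Mb away in the MCFDCIS-named and MCF10A-named lists. KRT17 had parental clusters 124 bp, 27.1 kb and 31.2 kb upstream, with the nearest D4 clusters at 21.3 and 1.62 Mb in the same lists. KRT16, KRT17 and KRT14 share these 3 upstream clusters, and KRT5 shares that of KRT6A, so the 5 genes are not 5 independent observations. From closest to farthest in the parental lists the genes ran KRT17, KRT6A, KRT16, KRT5, KRT14, and this order was the same under both names because the clusters are the same.

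Counted by gene, the D4 lists had 0 of 5 member genes within 200 kb of a cluster, where 2.53% and 1.93% of the 18609 protein-coding genes tested had one in the MCFDCIS-named and MCF10A-named D4 lists. The parental lists had 5 of 5, by the choice of genes, where 10.7% and 7.46% of protein-coding genes had one. Within 25 kb the D4 lists had 0 of 5 (all genes 0.505% and 0.328%) and the parental lists had KRT6A, KRT16 and KRT17 (all genes 1.84% and 1.13%). Within 2 kb the D4 lists again had 0 of 5 (all genes 0.193% and 0.0699%), and the parental lists had KRT6A and KRT17 (all genes 0.398% and 0.242%).

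**Figure D2:**
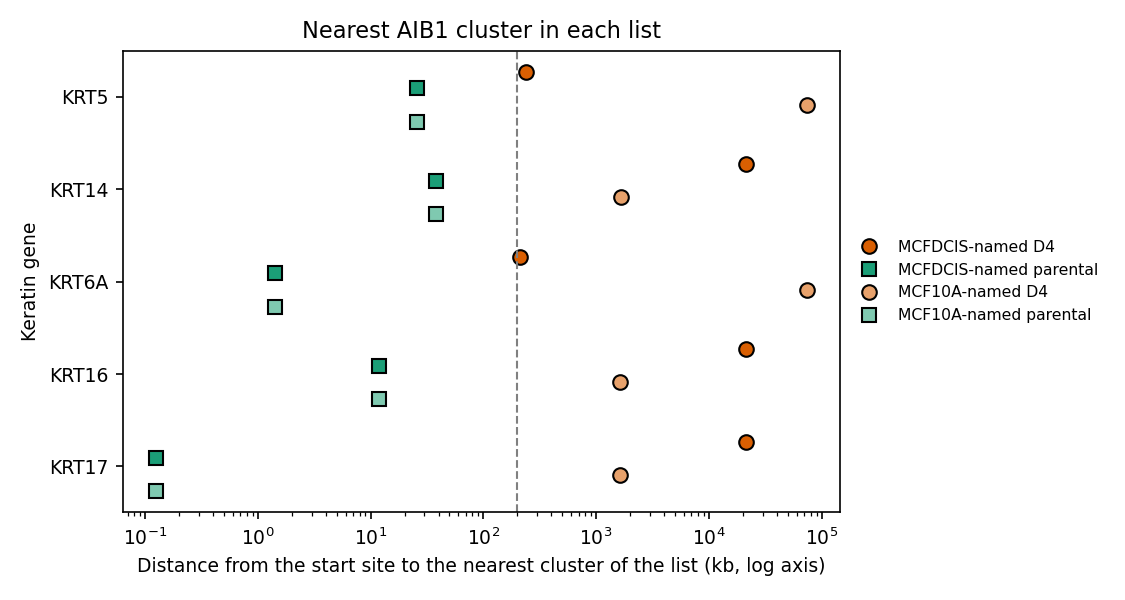
Distance in kb (log axis) from the TSS of each keratin gene to the nearest cluster of each list, D4 lists as circles and parental lists as squares, with the 200 kb limit as a dashed line. The parental squares coincide under both names at 0.124 to 37.8 kb, and every D4 circle lies beyond the limit, at 213 kb for KRT6A in the MCFDCIS-named list and farther for the rest.

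The 200 kb limit decided the status of the MCFDCIS-named D4 list at the type II locus. The cluster just inside the limit was chr17:39560251-39560460, 183 kb from the KRT14 TSS. The cluster just outside was chr12:52674201-52674410, 213 kb from KRT6A, and it was in the MCFDCIS-named D4 list and both parental lists. It lies within KRT86, a hair keratin gene, outside the exons of the canonical transcript and 5.77 kb from its TSS, and is the nearest keratin cluster of that D4 list. With a 250 kb window, chosen after the data were seen, the MCFDCIS-named D4 list had 1 cluster, near 2 member genes, and the MCF10A-named D4 list still had 0.

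The KRT17 promoter cluster lay upstream of the canonical TSS but inside a longer annotated KRT17 transcript. The distal KRT17 clusters, chr17:39807951-39808010 and chr17:39812001-39812060, were in no annotated gene. The cluster at chr17:39560251-39560460 was within an lncRNA gene, outside the exons of its canonical transcript, and stood 6.39 kb upstream of the hair keratin gene KRT31. KRT14 was thus the only reason for its inclusion, and KRT31 was its nearest protein-coding gene. The widths were 60 bp for 4 clusters and 210 bp for that one.

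The order of the 5 clusters by score differed between the parental lists. The score is the authors' own value per cluster, of unstated definition, and serves here only to rank clusters within a list. In the MCFDCIS-named parental list of the authors' deposited table, the KRT31 side cluster ranked 50 of 651 (score 73.1), the first distal KRT17 cluster 107 (46.2), the KRT17 promoter cluster 135 (41.0), the second distal KRT17 cluster 198 (31.7) and the KRT6A cluster 378.5, a tied rank (17.3). In the MCF10A-named parental list of the authors' deposited table, the first distal KRT17 cluster ranked 80 of 490 (score 25.7), the KRT6A cluster 153 (17), the KRT17 promoter cluster 195.5 (14.1), the second distal KRT17 cluster 208.5 (13.4) and the KRT31 side cluster 241 (12.1). The KRT6A cluster was thus the lowest of the 5 in the first list and the second highest in the other, and the KRT31 side cluster was the highest in the first and the lowest in the other. By the authors' deposited table the median keratin cluster stood at 20.7% from the top of the MCFDCIS-named parental list, against 36.7% for the 307 clusters of both parental lists, and at 39.9% from the top of the MCF10A-named parental list, against 35.6%.

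To set the lists side by side on the same regions, the 307 clusters in both parental lists were ranked among themselves by the scores of each list. The KRT31 side cluster ranked 46 by the MCFDCIS-named and 193 by the MCF10A-named scores, 147 places apart, and 62 of the 307 clusters (20.2%) were at least as far apart. The KRT6A cluster ranked 225 and 136, 89 places apart, and 35.8% of the 307 were at least as far apart. The KRT17 promoter cluster ranked 102 and 165, and its 63 places were the median of all 307. The first distal KRT17 cluster ranked 85 and 75, and the second 137.5 and 173. Each of the 5 shifts was thus matched or exceeded by at least 20.2% of the 307 clusters. The KRT86 cluster just outside the limit ranked 33.5 and 35, and in the MCFDCIS-named D4 list of the authors' deposited table it ranked 52 of 99.

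**Figure D3:**
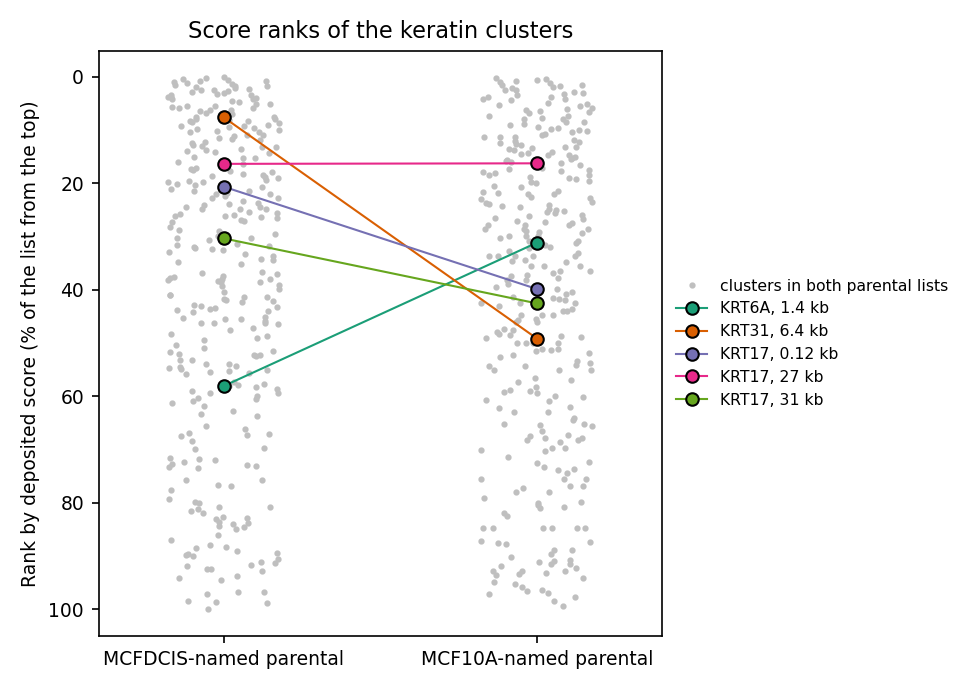
Rank of each keratin cluster by the deposited score, as a percentage of the list from the top (0 at the top of the axis), in the 2 parental lists, with the 307 clusters of both lists in grey and lines joining the same cluster. The first distal KRT17 cluster sits at 16.4% and 16.3%, the KRT31 side cluster at 7.68% and 49.2%, and the KRT6A cluster at 58.1% and 31.2%.

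The letters of the clusters differed from one to the next. The AP-1 consensus, bound by FOS and JUN proteins, was in the central 500 bp of 2 of 5 keratin clusters, against 43.0% of the 307 clusters of both parental lists, 33.6% of all 897 clusters and 16.1% of windows of that width 5 kb to either side of them. The KRT31 side cluster held 2 AP-1 matches inside its 210 bp, as printed above. The KRT17 promoter region held 1, outside the deposited cluster. Of the 10 windows 5 kb from the keratin clusters, 0 held the consensus. Some of these windows fall within KRT6A or KRT17 or close to the other distal KRT17 cluster, so they are not an independent background. When only the cluster with 50 bp to either side was searched, the KRT31 side cluster alone held it.

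The KRT6A window held matches to the GRE, which the glucocorticoid receptor binds. The 13 capitals of its printed sequence match the consensus on both strands, and they lie outside the deposited 60 bp, centred 66 to 68 bp from the cluster centre on the side of the KRT6A gene. The GRE consensus was in 1 of 5 keratin clusters, against 20.5% of the 307 clusters of both parental lists, 12.9% of all clusters and 5.52% of flanking windows, and in 1 of the 10 keratin flanks. The TEAD consensus, bound by the partners of YAP, was in the first distal KRT17 cluster, within the deposited 60 bp and 8 bp from its centre. TEAD was thus in 1 of 5, against 19.9% of the 307 clusters, 13.4% of all clusters and 6.91% of flanks, and in 1 of the 10 keratin flanks. For both, 1 of 5 is close to the share over the 307 clusters.

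For the other consensus sequences the shares are given over the 307 clusters of both parental lists, all 897 clusters and all flanks. The p53 and p63 half-site was in 1 of 5, at the KRT17 promoter (19.2%, 15.5% and 12.5%), and in 2 of the 10 keratin flanks. The C/EBP consensus TTGCNNAA was in 1 of 5, at the edge of the KRT6A cluster (39.7%, 35.2% and 21.2%), and in 1 of 10 keratin flanks. The RUNX consensus TGTGGTN was in 1 of 5 (37.1%, 35.6% and 31.4%) and in 2 of 10 keratin flanks. The antioxidant response element TGACNNNGC, which can overlap an AP-1 match, was in 2 of 5 (23.8%, 20.6% and 18.2%) but in 6 of 10 keratin flanks. The loose NF-kB consensus, GGG and CC with 5 bases between them, was in 4 of 5 (61.6%, 50.6% and 47.0%) and in 8 of 10 keratin flanks, the same share. The second distal KRT17 cluster held the NF-kB consensus and none of the others. With 5 clusters at 2 loci these counts are descriptions, and a match is not a binding site.

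GC content set the clusters around KRT17 apart from the others in value. The central 500 bp had 63.2% GC at the KRT17 promoter and 65.6% and 66.4% at the distal KRT17 clusters, but 49.0% at the KRT6A cluster and 43.2% at the KRT31 side cluster. The median was 49.6% over the 307 clusters of both parental lists and 46.2% over all 897. The NF-kB consensus is itself rich in G and C, and its part in that count was not tested.

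The promoters of the type I members shared the AP-1 consensus whether or not a cluster covered them. From 250 bp before to 50 bp after the canonical TSS, KRT14, KRT16 and KRT17 each held it, and KRT5 and KRT6A did not, while 5.49% of 18609 protein-coding promoters did (1021). KRT14 and KRT16 had no cluster in that stretch in any list, and the KRT17 cluster did not cover the match. These are related neighbouring genes of the same locus, so their promoters are not separate observations. The KRT17 match began 243 bp before the TSS, near the edge of the stretch searched. Of the 7 other consensus sequences searched in the same 5 promoters, GRE, TEAD, RUNX and C/EBP were in 0 (all promoters 1.71%, 2.42%, 10.7% and 8.2%). The antioxidant response element was in that of KRT5 alone (14.0%), the p53 and p63 half-site in those of KRT5 and KRT17 (5.6%), and the NF-kB consensus in all but that of KRT14 (68.9%).

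**Figure D4:**
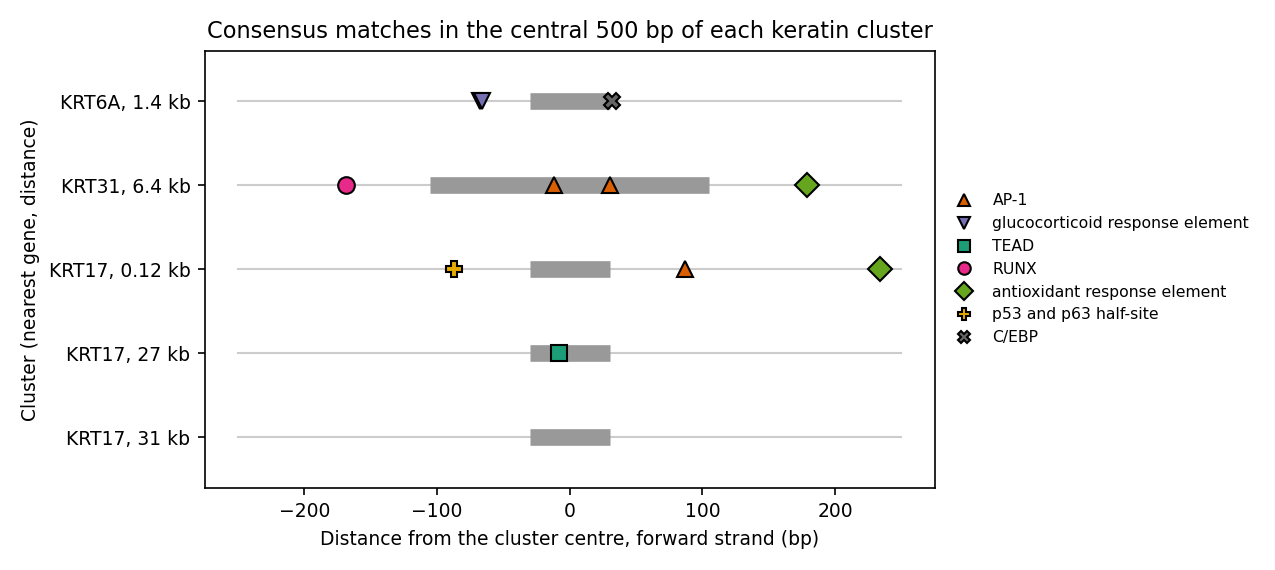
Consensus matches by distance in bp from the centre of each keratin cluster, forward strand, in the central 500 bp, with the deposited cluster as a grey bar and NF-kB matches, which 50.6% of all clusters hold, left out. AP-1 (2 triangles) and TEAD (square) matches lie inside a cluster at the KRT31 side and the first distal KRT17 cluster, and the GRE lies beside the KRT6A cluster.

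The KRT17 promoter cluster lies in duplicated sequence. Its central 500 bp had 3 other copies over nearly the full length, with 93.6% to 94.0% identity, next to the pseudogenes KRT17P1, KRT17P2 and KRT17P6 on the short arm of chromosome 17, and another copy in 2 pieces next to KRT17P3.

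No list had a cluster at any of the copies. The nearest cluster of any list was 509 kb from the KRT17P1 copy, 70.8 kb from that of KRT17P2, 1510 kb from that of KRT17P6 and 500 kb from that of KRT17P3. The labels and files do not state how reads with several places in the genome were treated, and its part in the KRT17 cluster was not tested. Of all 897 clusters 28 (3.12%) had a second match of at least 95% over 90 bp of their central 100 bp, and of the keratin clusters only that at the KRT17 promoter did. Without it 4 clusters remained near member genes in each parental list, and the nearest cluster to KRT17 was that at 27.1 kb. The KRT6A cluster had no other match, although KRT6A has close relatives in KRT6B and KRT6C.

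Beyond the 5 genes, most keratin genes of both loci lay within 200 kb of a parental cluster. Of 27 keratin genes at the type II locus, all type II except KRT18, 11 had a cluster in the MCFDCIS-named D4 list and 19 in its parental list. In the MCF10A-named D4 and parental lists 0 and 19 did, and KRT18 had none in any list. The D4 count rested on the single KRT86 cluster, and the nearest parental cluster was that one or the KRT6A cluster for all 19. Of 28 type I keratin genes, 0 and 27 had one in the MCFDCIS-named D4 and parental lists, and 0 and 27 in the MCF10A-named lists. The same shares over all genes are 2.53% and 10.7%, and 1.93% and 7.46%, but genes packed side by side share clusters and cannot be counted as separate. Within 25 kb the parental lists had the type II genes KRT81 at 10.9 kb, KRT86 at 5.77 kb (both also in the MCFDCIS-named D4 list), KRT6C at 20.9 kb and KRT6A. They also had the type I genes KRT23 at 19.3 kb, KRT39 at 9.89 kb, KRT34 at 21.7 kb, KRT31 at 6.39 kb, KRT37 at 20.4 kb, KRT16 and KRT17.

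Of 18 genes of desmosomes and hemidesmosomes, the junctions that anchor keratin filaments, 0 and 7 had a cluster within 200 kb in the MCFDCIS-named D4 and parental lists, and 2 and 6 in the MCF10A-named D4 and parental lists. Over all protein-coding genes the shares were 2.53% and 10.7% in the MCFDCIS-named D4 and parental lists and 1.93% and 7.46% in the MCF10A-named ones, so a D4 count of 0 among 18 genes is near the share over all genes. This gene list and those of regulators and stress genes below were chosen with earlier results of these data known. Nothing is therefore read from their parental or D4 counts. PLEC, which encodes the linker plectin, had a parental cluster 2.90 kb from its TSS in both names, and an MCF10A-named D4 cluster at 73.0 kb. PKP1, a desmosomal plakophilin gene, had a parental cluster at 24.5 kb in both names and none in D4. ITGB4, the hemidesmosome integrin gene, had a cluster at 20.8 kb in the MCF10A-named D4 and the MCFDCIS-named parental list. JUP, the gene of the desmosome protein plakoglobin, is a neighbour of the type I locus, 131 kb from the second distal KRT17 cluster.

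Of 17 genes for regulators of basal keratins, 0 and 6 had a cluster within 200 kb in the MCFDCIS-named D4 and parental lists, where 2.53% and 10.7% of all genes had one. In the MCF10A-named D4 and parental lists 0 and 6 of 17 had one, where 1.93% and 7.46% of all genes did. The D4 counts of 0 are near these shares, and nothing is read from them or from the parental counts. NR3C1, the glucocorticoid receptor gene, had a cluster 1.10 kb upstream in the MCFDCIS-named parental list alone. FOSL1, an AP-1 gene, had one 15.5 kb upstream in both parental lists, which also counts for its neighbour OVOL1, and TFAP2A one at 11.3 kb in the MCF10A-named parental list alone. Of 16 stress and cornification genes, 3 and 5 had a cluster in the MCFDCIS-named D4 and parental lists and 0 and 2 in the MCF10A-named ones, beside the same shares over all genes. The 3 genes of the D4 list, S100A2, S100A7 and S100A8, rested on 1 cluster, chr1:153540051-153540410. S100A2, a basal epithelial calcium-binding protein gene, was the closest, with a cluster 1.73 kb upstream in the MCFDCIS-named D4 and parental lists and in neither MCF10A-named list.

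Away from the keratin loci, the genes most like KRT17 and KRT6A were sought by the 4 distances from the TSS to the nearest cluster of each list, as log10 of bp plus 100, capped at 200 kb. Likeness was the Euclidean distance over these 4 values. For KRT17 the closest genes were KLK6, SCNN1A and HRAS (0.495, 0.835 and 0.865), with parental clusters over the TSS, at 772 bp and at 816 bp under both names. For KRT6A they were ZBTB7B, MT2A and SEPTIN9 (0.0231, 0.123 and 0.146), with parental clusters at 1468, 1136 and 1671 bp. None of the 6 had a D4 cluster within 200 kb except SEPTIN9, with an MCF10A-named D4 cluster at 155971 bp. The same 4 distances were the basis of the choice, so close parental clusters and few D4 clusters follow from it.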

How the data were processed

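ChIP-seq for AIB1 was made by the authors in 4 groups with 3 ChIP samples and 1 input each. They deposited 1 list of clusters per group, with a score per cluster without its definition. The caller and threshold are not stated in the labels or files. The build was hg19 (GRCh37) per the submitters' processing notes, and ChIP was set against input per the series' design text. Lists carry no sample map here, because file names and descriptions cross the lines.

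Distances ran from the nearest cluster edge to the Ensembl canonical TSS in GENCODE release 44 lifted to GRCh37, over 18609 protein-coding genes on the 20 chromosomes with clusters. Sharing meant an overlap of at least 1 bp. Motifs were sought on both strands. Copies were sought with minimap2 2.31 and blastn 2.17.0 (E-value at most 1e-10). Other tools were samtools 1.23.1, matplotlib 3.10.9, pysam 0.24.0, Python 3.11.15, SciPy 1.17.1 and numpy 2.4.6. Distance and motif functions were tested on simulated data. Intervals are exact (Clopper-Pearson) 95% intervals, and the limit for a count of 0 is 3 clusters of the list.

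Members and gene lists were chosen with earlier results of these data known. The named genes were the 5 keratins, the nearest and host genes of their clusters, listed genes with a cluster within 25 kb, and the 3 genes most like KRT17 and KRT6A, while JUP, OVOL1, S100A7, S100A8 and the pseudogenes were named after their values were seen. Listed genes on chromosomes without clusters and 1 symbol not matched were left out. No test was made, since each group is a single list. The sequence of the KRT17 promoter cluster is not reported here.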

Additional observations from a re-analysis of the deposited data

How the results depend on the processing

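No paired analysis was possible because each group is 1 list without replicate values, and no replicate could be left out. The 200 bp motif window, the 100 kb and 50 kb windows, the use of any transcript's TSS, distances from the cluster centre, both other definitions of sharing and the removal of clusters with a second close match kept each count of keratin clusters, keratin genes and AP-1 matches that they apply to within 1.5 times its value. A 25 kb window gave 2 clusters in each parental list, 2 different ones and 2 in both parental lists, near 3 member genes in each. Clusters at or above the median score left 3 member genes in the MCFDCIS-named parental list. A 250 kb window, chosen after the data were seen, gave the MCFDCIS-named D4 list 1 cluster, near 2 genes, with 1 also parental. AP-1 was in 1 cluster when the cluster with 50 bp to either side was searched. All 10 ranks moved by at most 1.5 under the other treatment of ties.

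In the order MCFDCIS-named D4 and parental, MCF10A-named D4 and parental, type II genes within 25 kb numbered 2, 4, 0 and 4, type I genes 0, 7, 0 and 7, desmosome and hemidesmosome genes 0, 3, 1 and 2, regulators 0, 2, 0 and 2, and stress genes 1, 1, 0 and 0. Within 100 kb type II genes numbered 6 in the first list, desmosome and hemidesmosome genes 4 and 3 in the parental lists, and stress genes 1, 1, 0 and 0. The construction of the smaller windows lowers these counts. With unknown depth and 99 to 651 clusters per list, a share of keratin clusters in D4 cells up to the limits given above cannot be told apart from 0.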
